A study of Bos taurus with 12 samples.

Results

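The mechanistic target of rapamycin complex 1 (mTORC1) pathway and the lysosomal machinery that reports amino acids to it were examined as 40 genes in the liver of newborn calves. The genes were taken by symbol from a list of 10 roles in the pathway, and all 40 were found among the 30336 genes of the count files and passed the filter on low counts. Liver was sampled from 12 Holstein heifer calves at 4 d of age, and polyadenylated RNA was sequenced as stranded libraries. The dams of 6 calves (CON) had received a close-up diet without added methionine. The dams of the other 6 calves (MET) had received the same diet with ethyl-cellulose rumen-protected methionine (Mepron) during the last 28 d before calving. The calves were managed alike after birth, but each was offered colostrum of its own dam, so effects before birth and through colostrum cannot be told apart.

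In cells, mTORC1 is a kinase complex that promotes protein synthesis and restrains autophagy when amino acids and growth signals are available. Amino acids bring it to the lysosome through the Rag GTPases, which are anchored there by the Ragulator scaffold, and the GTPase RHEB then activates it. GATOR1 switches the Rags off, GATOR2 opposes GATOR1, KICSTOR holds GATOR1 on the lysosome, and sestrins (leucine) and CASTOR proteins (arginine) act on GATOR2. The transcripts measured here are not a readout of the activity of the kinase, which is set largely on protein.

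The libraries held 8277789 to 10397604 reads assigned to genes. Libraries CON 1 and 4 were near-identical, as were MET 1 and 3, with chi-square statistics per gene of 1.31 and 1.23 (a value of 1 is sampling noise alone), whereas the other pairs of the 66 gave 23.3 to 122. Each of these pairs was therefore summed and counted as 1 sample (CON 1+4 and MET 1+3), which left 5 CON and 5 MET samples. A fit to all 12 libraries is given beside the results as the 12-library fit. It counts each near-identical pair as 2 replicates, and if a pair is 1 calf its p-values are too small. Hepatocyte markers were high in every sample, with a summed level of 132177 to 179857 CPM (assigned reads scaled to a common library size) in CON and 109383 to 143092 CPM in MET over 7 genes, and skeletal muscle markers summed to at most 0.195 CPM. Summed Kupffer cell markers were 1051 to 1443 CPM in CON and 1215 to 1637 CPM in MET, erythroid markers were 8.79 to 1080 CPM and 65.6 to 596 CPM, and the diets overlapped for each of these lists. In bulk liver, fewer cells of a type and less RNA per cell cannot be told apart. The first sequencing index differed between the diets, so index and diet cannot be told apart either.

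Transcripts of the pathway spanned a wide range of levels. Per kilobase of annotated exon (RPKM, mean of the 10 samples), the most abundant were the Ragulator subunit LAMTOR2 at 77.5 RPKM, the translation repressor EIF4EBP1 at 61.5 RPKM and LAMTOR4 at 55.5 RPKM. SEC13, a subunit shared by GATOR2 and the nuclear pore, followed at 42.9 RPKM, and LAMTOR5 stood at 40.2 RPKM. CASTOR1, the arginine sensor, was at 27.2 RPKM, whereas its paralog CASTOR2 was at 1.03 RPKM. The lowest was the GTPase RRAGD at 0.888 RPKM, with SESN3 and RICTOR both at 1.09 RPKM. The median of the members was 5.54 RPKM, close to the 5.12 RPKM of all genes tested.

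**Figure D1:**
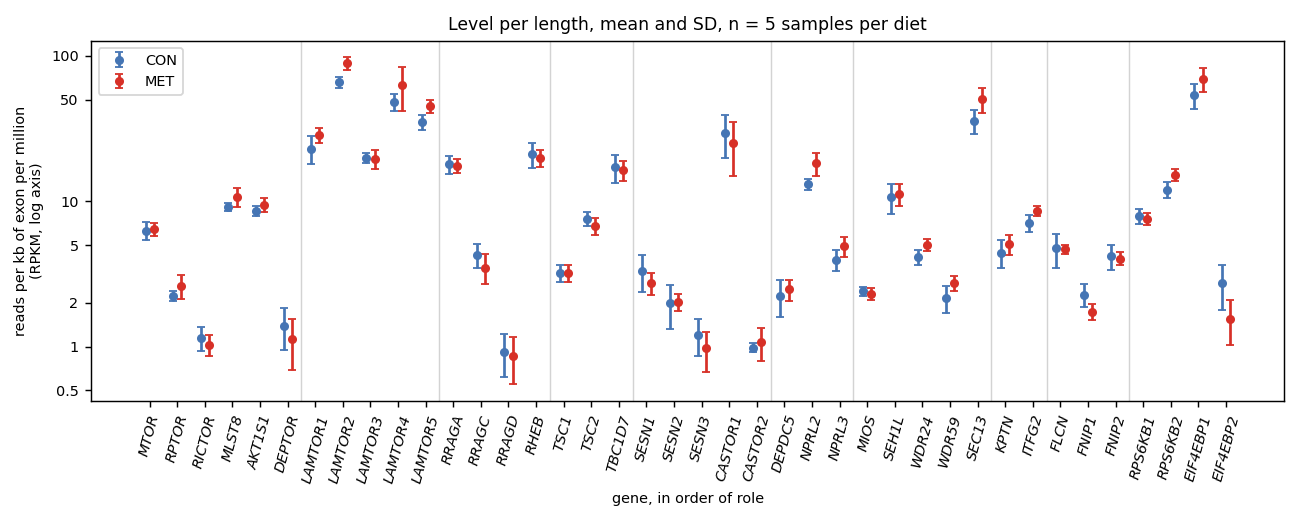
Level of each of the 40 genes per kilobase of annotated exon (RPKM, log axis), with a point for the mean of each maternal diet, bars for the SD over its 5 samples, and genes in order of role. Levels run from 0.888 RPKM on average over both diets for RRAGD to 77.5 RPKM for LAMTOR2.

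With edgeR's quasi-likelihood test and Benjamini-Hochberg adjustment over 13242 genes, 0 of the 40 members passed the false discovery rate (FDR) of 0.1 between MET and CON, where 0 of all genes (0%) passed and the lowest adjusted p was 0.156. At an unadjusted p of at most 0.05 there were 10 members, 8 higher and 2 lower in MET, beside 16.3% of all genes (7.83% higher and 8.52% lower). DESeq2 called 2 members on the same 10 samples, LAMTOR2 and NPRL2, both higher, beside 4.56% of all genes (2.12% higher). In the 12-library fit 4 members were called at the same FDR by edgeR, with LAMTOR2, LAMTOR5 and NPRL2 higher and FNIP1 lower, beside 4.41% of all genes (2.09% higher and 2.32% lower). Samples of the diets did not overlap for 3 members, LAMTOR2, NPRL2 and RPS6KB2, all higher in MET, beside 3.72% of all genes (1.91% higher). With 12 libraries this held for LAMTOR2 alone, beside 2.56% of all genes (1.31% higher). The median log2 fold change (MET over CON) of the members was 0.026, and 22 of the 40 were above 0, against a median of -0.0028 and 49.5% above 0 for all genes.

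**Figure D2:**
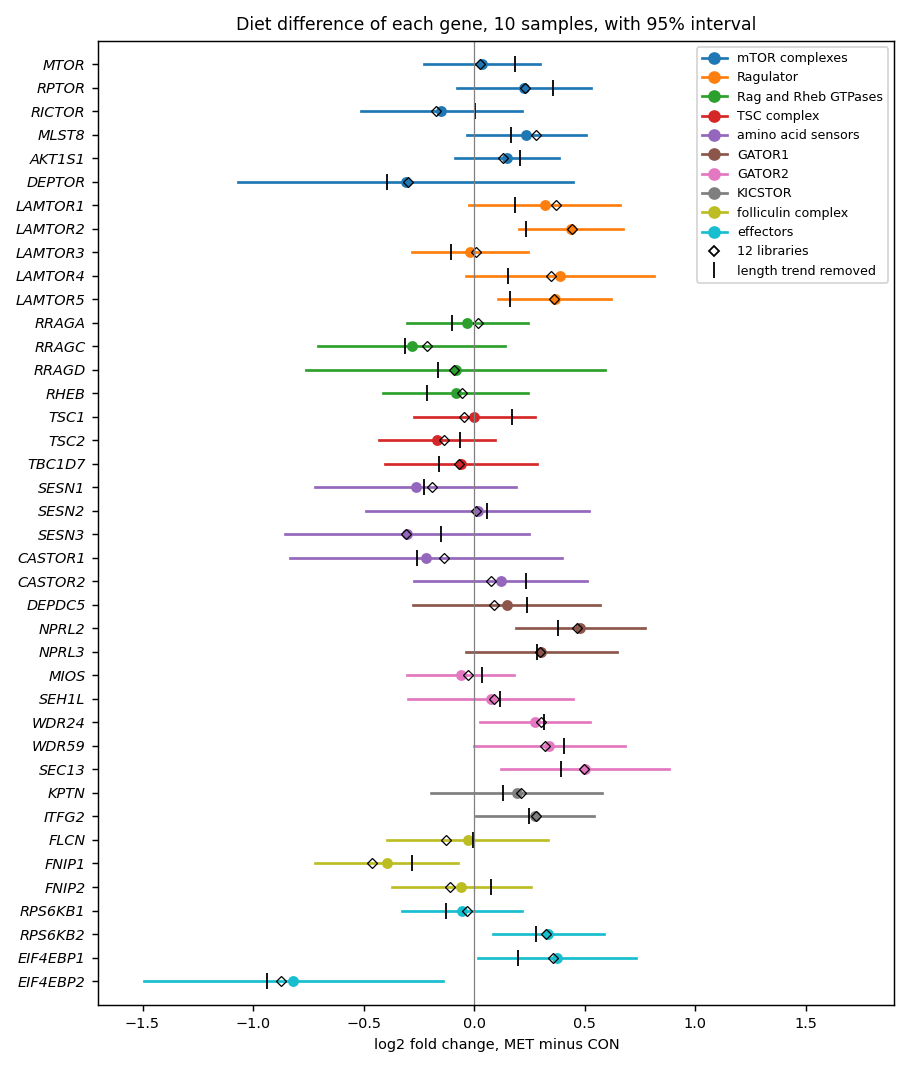
Log2 fold change (MET over CON) of each of the 40 genes by role, with the 95% interval of edgeR's fit to 10 samples. Diamonds are the 12-library fit and ticks the fit with the trend on gene length removed; LAMTOR2, NPRL2 and SEC13 lie to the right of 0 and EIF4EBP2 and FNIP1 to the left.

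The kinase itself did not pass the test. MTOR (chromosome 16, 43273543 to 43397006, UMD 3.1.1) was at 49.3, 53.0, 67.4, 48.2 and 55.3 CPM in CON samples 1+4, 2, 3, 5 and 6, and at 47.9, 60.9, 57.0, 53.4 and 60.7 CPM in MET samples 1+3, 2, 4, 5 and 6. The diets overlapped throughout, and the log2 fold change was 0.035 with a 95% interval of -0.23 to 0.30 (edgeR adjusted p = 0.915). RPTOR, which recruits substrates to mTORC1, had a log2 fold change of 0.23 (SE 0.14), and MLST8, a subunit of both mTOR complexes, 0.24 (SE 0.12). RICTOR, which defines mTORC2, stood at -0.15 (SE 0.17), and the inhibitors AKT1S1 (PRAS40) and DEPTOR at 0.15 (SE 0.11) and -0.31 (SE 0.35), DEPTOR with only 6 to 24 reads per library. With 10 samples no gene of this group of 6 reached an unadjusted p of 0.05, where 16.3% of all genes did. Their median log2 fold change was 0.09. RPTOR reached that p with the length trend removed, at 0.36, as did 14.1% of all genes. MLST8 reached it in the 12-library fit, at 0.28, as did 2715 of 13212 genes.

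In Ragulator, the pentameric scaffold that holds the Rags on the lysosome, 4 of 5 subunits had log2 fold changes above 0, with a median of 0.36. LAMTOR2 (chromosome 3, 14763799 to 14766945) was at 41.5, 49.0, 43.2, 38.7 and 40.3 CPM in the CON samples and at 56.8, 55.5, 56.4, 52.0 and 67.2 CPM in the MET samples. Every MET sample lay above every CON sample. The means were 42.5 ± 3.95 CPM in CON and 57.6 ± 5.73 CPM in MET (SD, n = 5 each), a log2 fold change of 0.44 (SE 0.11, edgeR adjusted p = 0.174; 0.0458 in the 12-library fit). LAMTOR5 (chromosome 3, 33134982 to 33139308) was at 23.0, 20.6, 17.6, 23.6 and 23.0 CPM in CON and 29.0, 27.7, 31.4, 23.4 and 27.4 CPM in MET. Only MET 5 lay within the CON range, and the log2 fold change was 0.36 (SE 0.12, edgeR adjusted p = 0.192; 0.0899 in the 12-library fit). LAMTOR1, the lipid-anchored subunit, and LAMTOR4 had log2 fold changes of 0.32 (SE 0.16) and 0.39 (SE 0.20), the latter with MET 6 at 59.5 CPM and the other MET samples at 26.9 to 38.3 CPM. LAMTOR4 was at 0.17 without MET 6, and LAMTOR1 at 0.21 without CON 1+4. LAMTOR3 stood at -0.017 (SE 0.12).

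**Figure D3:**
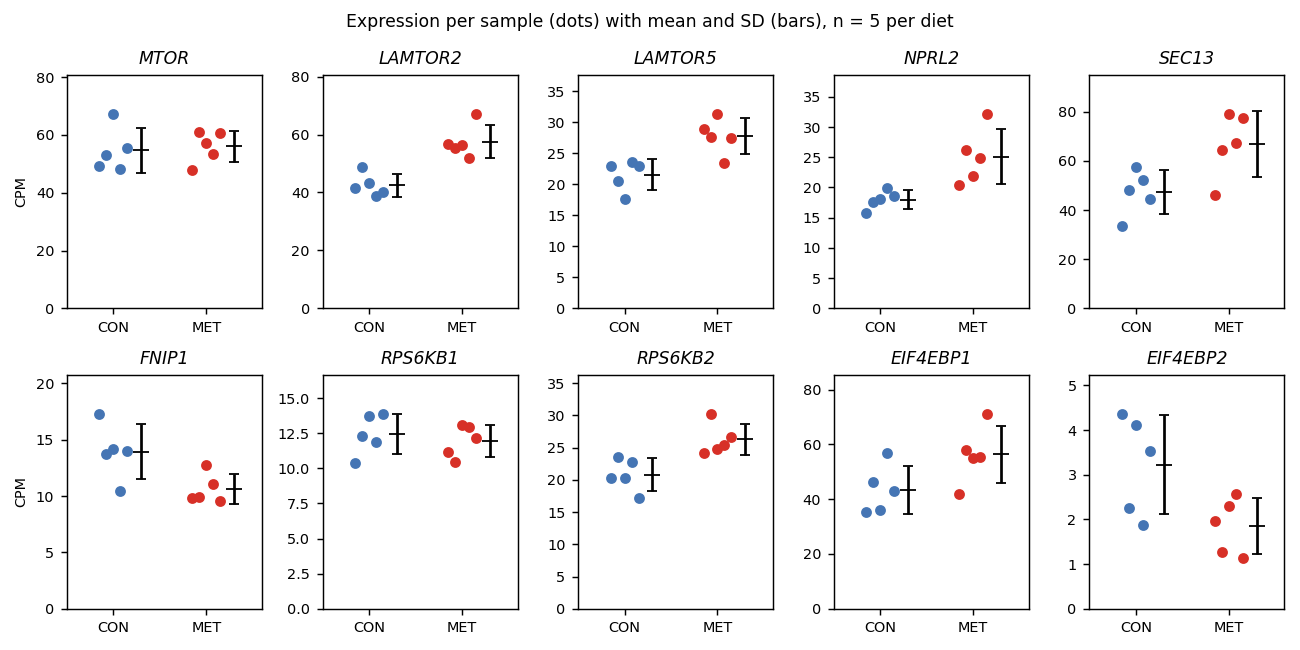
CPM of 10 members in each sample, with 1 panel per gene, a point for each sample of a maternal diet, and a bar for the mean with its SD. LAMTOR2, NPRL2 and RPS6KB2 show no overlap between CON and MET, whereas MTOR and RPS6KB1 overlap broadly.

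Ragulator subunits are short genes, and fold change varied with gene length over the whole table. Across genes, Spearman's rho between log2 fold change and exonic length was -0.30 for all 13242 genes and -0.34 for the 40 members. Below 1000 bases the 1042 genes tested had a median log2 fold change of 0.21 and 75.7% were higher in MET; the 4 members there, LAMTOR2, LAMTOR4, LAMTOR5 and EIF4EBP1, were all higher with a median of 0.38. When a smooth trend on length was removed from the counts' offsets, the median of Ragulator moved from 0.36 to 0.16. LAMTOR2 then had a log2 fold change of 0.24 and LAMTOR5 0.16, of which LAMTOR2 had an unadjusted p under 0.05 in edgeR's test and LAMTOR5 did not. The correction was applied to edgeR's fits only, not to DESeq2. With it no member passed FDR in edgeR's test in either sample set, as for 0% of all genes with 10 samples and 1.89% with 12 libraries. At an unadjusted p of at most 0.05 there were 8 members, 7 higher and 1 lower, beside 14.1% of all genes (6.62% higher and 7.46% lower); 6 of the 8 were among the 10 of the uncorrected fit. LAMTOR2 alone did not overlap with 12 libraries and the trend removed, beside 1.98% of all genes.

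**Figure D4:**
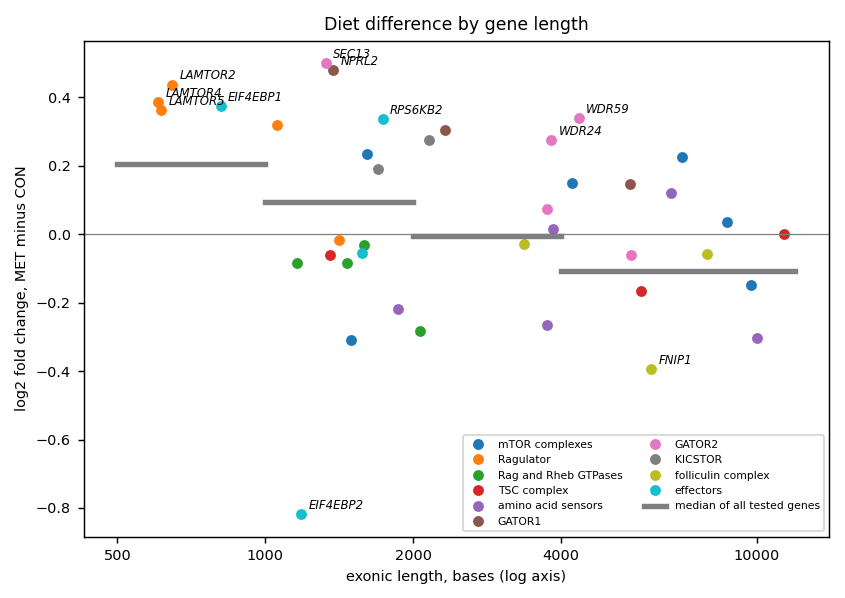
Log2 fold change (MET over CON) of the 40 members against annotated exonic length (log axis), with the median of all tested genes by length. The medians of all genes go from 0.21 below 1000 bases to -0.11 at 4000 bases and above.

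All 4 GTPases had fold changes below 0 with 10 samples, though RRAGA turned to 0.015 with 12 libraries. With a sample left out, RRAGA and RRAGD reached up to 0.021 and 0.080. RRAGA, which binds GTP when amino acids are present, was at -0.031 (SE 0.13) on the log2 scale. Its dimer partners RRAGC and RRAGD were at -0.28 (SE 0.20) and -0.083 (SE 0.31, with 7 to 20 reads per library), and RHEB, the direct activator of mTORC1, at -0.085 (SE 0.15). In the TSC complex, which turns RHEB off, TSC1 stood at 0.0006 (SE 0.13), TSC2 at -0.17 (SE 0.12) and TBC1D7 at -0.059 (SE 0.16). None of these 7 genes reached an unadjusted p of 0.05, where 16.3% of all genes did.

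Among the sensors, SESN1, SESN2 and SESN3 had log2 fold changes of -0.27 (SE 0.21), 0.016 (SE 0.23) and -0.30 (SE 0.25). CASTOR1 was at -0.22 (SE 0.28), with CON samples between 35.2 and 73.6 CPM and MET samples between 30.1 and 76.3 CPM, and CASTOR2 was at 0.12 (SE 0.18). The spread of CASTOR1 within a diet, an SD of 0.525 on the log2 scale, was above the members' median of 0.240.

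Between the sensors and the Rags stand GATOR1, GATOR2 and KICSTOR. With 10 samples edgeR called no gene of these, beside 0% of all genes, and DESeq2 called NPRL2, beside 4.56% of all genes. The log2 fold changes of all 3 GATOR1 subunits were above 0, with a median log2 fold change of 0.30 that was 0.29 with the length trend removed. NPRL2 (chromosome 22, 50568310 to 50571594), its catalytic subunit, was at 15.8, 17.6, 18.0, 20.0 and 18.7 CPM in the CON samples and at 20.4, 26.2, 21.9, 24.9 and 32.2 CPM in the MET samples. The lowest MET sample, 1+3, lay just above the highest CON sample, 5. The log2 fold change was 0.48 (SE 0.13, edgeR adjusted p = 0.176; 0.0826 in the 12-library fit), and 0.38 with the length trend removed. NPRL3 and DEPDC5, which completes GATOR1 and binds the Rags, were at 0.30 (SE 0.16) and 0.15 (SE 0.19).

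In GATOR2, the log2 fold changes of 4 of 5 subunits were above 0 and the median was 0.27, or 0.32 with the length trend removed. SEC13 was at 47.3 ± 9.01 CPM in CON and 66.8 ± 13.3 CPM in MET, a log2 fold change of 0.50 (SE 0.17, edgeR adjusted p = 0.213). CON samples reached 57.6 CPM and MET samples went down to 46.0 CPM, so the diets overlapped. WDR24 and WDR59, beta-propeller subunits, were at 0.27 (SE 0.12, edgeR adjusted p = 0.272) and 0.34 (SE 0.16, edgeR adjusted p = 0.308). SEH1L, which like SEC13 is also a nuclear pore protein, was at 0.074 (SE 0.17), and MIOS was at -0.062 (SE 0.11). Of the KICSTOR genes, ITFG2 was at 0.28 (SE 0.12, edgeR adjusted p = 0.293) and KPTN at 0.19 (SE 0.18).

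Folliculin and its FNIP partners act on RRAGC and RRAGD, and all 3 genes were below 0, FNIP2 turning to 0.075 with the length trend removed. Without CON 1+4, FLCN turned to 0.126 and FNIP2 to 0.025. FNIP1 (chromosome 7, 23988091 to 24066102) was at 17.3, 13.7, 14.2, 10.4 and 14.0 CPM in CON and at 9.78, 9.95, 12.8, 11.1 and 9.58 CPM in MET. CON 5 lay among the MET samples. The log2 fold change was -0.39 (SE 0.15, edgeR adjusted p = 0.235; 0.0916 in the 12-library fit), and -0.28 with the length trend removed. FNIP2 and FLCN stood at -0.058 (SE 0.15) and -0.029 (SE 0.17).

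**Figure D5:**
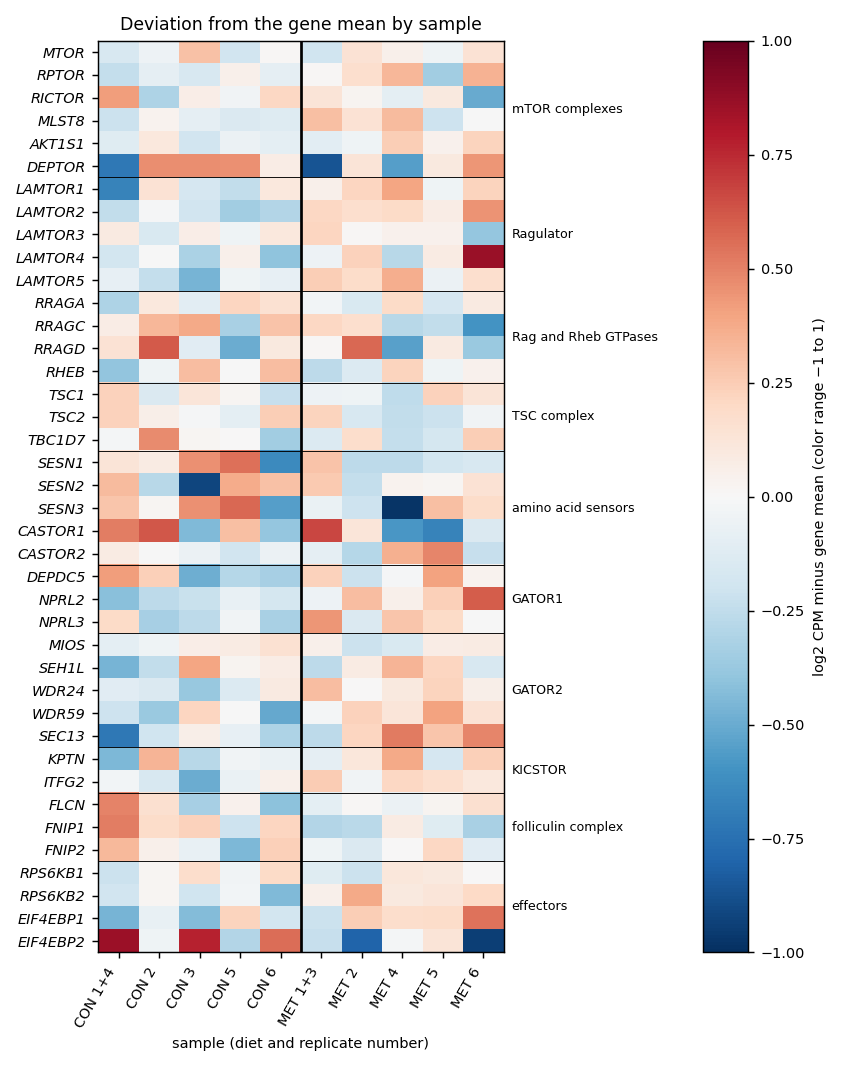
Deviation of each of the 40 genes from its mean over the 10 samples (log2 CPM), with samples in columns by maternal diet and genes in rows by role. LAMTOR2 is above its mean in the 5 MET samples, while CASTOR1 and DEPTOR vary within both diets.

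The substrates of mTORC1 include the S6 kinases and the 4E-binding proteins, which repress cap-dependent translation until phosphorylated. RPS6KB1 (chromosome 19, 11070901 to 11107334) was at 10.4, 12.3, 13.7, 11.9 and 13.9 CPM in CON and 11.1, 10.4, 13.1, 13.0 and 12.2 CPM in MET. These values overlapped, with a log2 fold change of -0.055 and a 95% interval of -0.33 to 0.22 (edgeR adjusted p = 0.862). RPS6KB2 (chromosome 29, 45965779 to 45971983) was at 20.3, 23.6, 20.2, 22.8 and 17.1 CPM in CON and 24.1, 30.2, 24.8, 25.4 and 26.7 CPM in MET. All MET samples were above all CON samples (but not with scaling by library size only), with a log2 fold change of 0.34 (SE 0.11, edgeR adjusted p = 0.210; 0.106 in the 12-library fit). Per length, the level of RPS6KB2 over that of RPS6KB1 was 1.55 ± 0.298 in CON and 2.02 ± 0.363 in MET (SD, n = 5 each), with overlap.

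EIF4EBP1 was at 35.3, 46.3, 36.0, 56.8 and 42.9 CPM in CON and 42.0, 57.9, 55.1, 55.6 and 71.2 CPM in MET. CON 5 was among the higher values, and the log2 fold change was 0.37 (SE 0.17, edgeR adjusted p = 0.291), or 0.20 with the length trend removed. EIF4EBP2, a paralog present at far lower levels, was at 4.36, 2.26, 4.11, 1.87 and 3.52 CPM in CON and 1.97, 1.27, 2.30, 2.57 and 1.13 CPM in MET. The diets overlapped, and the log2 fold change was -0.82 (SE 0.31, edgeR adjusted p = 0.238).

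Genes beside the 40 members were taken from 4 further lists, of which 58 of 65 genes were tested. With 10 samples edgeR called 0 of them at the FDR used and 9 reached an unadjusted p of 0.05, DESeq2 called 3 (ATP6V1C2, ATP6V0C and DDIT4), and the 12-library fit called 1 (ATP6V0C). These counts stand beside 0%, 16.3%, 4.56% and 4.41% of all genes, and are near or below those shares. Among other sensing genes 1 of 9 tested reached an unadjusted p of 0.05, a share of 11.1% beside 16.3% of all genes. This was RNF152, a ubiquitin ligase for RRAGA, at a log2 fold change of 0.35 (edgeR adjusted p = 0.245), and RRAGB was at -0.31. BMT2 (SAMTOR), the sensor of S-adenosylmethionine, is named for its role: it was at 3.30, 2.89, 4.11, 2.60 and 3.94 CPM in CON and 3.37, 2.73, 5.75, 5.70 and 2.68 CPM in MET, with overlap.

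Of the vacuolar ATPase, the proton pump that acidifies the lysosome, 19 of 24 genes were tested, 7 higher and 12 lower, with 3 higher and 1 lower at an unadjusted p of 0.05, a share of 21.1% beside 16.3% of all genes (7.83% higher and 8.52% lower). With the length trend removed, 1 higher (ATP6V1C2) and 1 lower (ATP6V0A1) were under that p, beside 14.1% of all genes, and ATP6V0C was not among them. ATP6V0C, a subunit of its membrane ring, was at 83.1, 92.5, 64.9, 84.4 and 83.5 CPM in CON and 101, 102, 109, 94.3 and 109 CPM in MET. The diets did not overlap, with means of 81.7 ± 10.2 and 103 ± 6.19 CPM (log2 fold change 0.33, edgeR adjusted p = 0.211; 0.096 in the 12-library fit). ATP6V1C2 was at 0.98 to 2.06 CPM in MET 1+3, 2 and 6 but at 30.9 and 26.5 CPM in MET 4 and 5, against at most 2.40 CPM in CON. Its log2 fold change of 3.03 (edgeR adjusted p = 0.188) thus came from 2 samples.

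Among 19 downstream genes, 8 were higher and 11 lower. At an unadjusted p of at most 0.05, 1 was higher and 2 lower, a share of 15.8% beside 16.3% of all genes. LPIN1, a phosphatidate phosphatase and mTORC1 substrate, was at 42.0 ± 20.0 CPM in CON and 12.4 ± 11.8 CPM in MET (log2 fold change -1.73, SE 0.59, edgeR adjusted p = 0.206). MET 1+3 at 27.8 CPM lay above CON 2 at 24.7 CPM, so the diets overlapped. MET 4 was at 22.5 CPM, and MET 2, 5 and 6 were at 3.02, 4.69 and 4.02 CPM. EIF4EBP3 had a log2 fold change of 0.45 (edgeR adjusted p = 0.224). Of 11 energy and stress genes, 3 were higher and 8 lower. At that unadjusted p 0 were higher and 1 lower, a share of 9.09%. DDIT4 (REDD1), which inhibits mTORC1 through the TSC complex, was at 26.6, 56.2, 47.3, 65.0 and 33.4 CPM in CON and 29.2, 29.4, 28.2, 22.2 and 31.8 CPM in MET. The means were 45.7 ± 15.8 and 28.1 ± 3.56 CPM, a log2 fold change of -0.69 (SE 0.22, edgeR adjusted p = 0.189; 0.088 by DESeq2). Only CON 1+4 lay within the MET range. PRKAA1, a catalytic subunit of AMPK, was at -0.24 on the log2 scale.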

How the data were processed

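Per the labels and the study's methods, single-end stranded libraries were sequenced on 1 lane, trimmed with Trimmomatic, mapped to UMD 3.1.1 with STAR 2.5.3a and counted with featureCounts of Subread 1.5.2. The authors deposited whole-number read counts per Entrez gene and library, without normalization, and these counts were used as deposited. No replicate was pooled by the authors. RefSeq symbols named 25105 of 30336 genes.

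The 2 near-identical pairs of libraries were summed, giving 5 samples per diet. Counts were filtered (filterByExpr, minimum count 10, minimum total 15), scaled by TMM and tested with edgeR 4.0.16 in R 4.3.3 (quasi-likelihood test), with diet alone in the model and Benjamini-Hochberg adjustment over all genes tested; calls were made at an FDR of at most 0.1, as in the study's methods. DESeq2 1.42.0, all 12 libraries, other scalings, no filter, a replicate block, removal of the length trend and omission of each sample were alternatives. The scripts were tested on simulated data. A count of 3 reads corresponds to 0.289 to 0.362 CPM, which covers counting error only. P-values weigh the diet difference against the spread between samples within a diet, with the samples as labelled.

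The members and lists were chosen with earlier results of these data known. Per-sample values are given for members called with 10 samples or 12 libraries, those without overlap, MTOR, the S6 kinases and the 4E-BPs. From related lists the genes named are those called with either sample set and the 2 with the lowest p in each list. BMT2 was added for its role, after its values were seen. ATP6V0A1 is named outside this rule, for its unadjusted p with the length trend removed. No sequences were used here.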

Additional observations from a re-analysis of the deposited data

Results flagged for a closer look

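In SESN1, a leucine sensor, sample MET 1+3 stood apart from the other MET samples at 13.5 CPM, against 9.17 to 9.89 CPM in the others. On the log2 CPM scale the gap was 0.805 of the whole MET range, above Dixon's critical value of 0.71. Its libraries MET 1 and MET 3 held 12.4 and 14.7 CPM, and CON samples ran from 7.05 to 16.2 CPM. Of 80 groups of samples tested, only the MET samples of SESN1 held a value apart in this way. Chance alone gives about 1 in 20 groups, so 1 flagged group of 80 is fewer than chance gives.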

How the results depend on the processing

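The number of members called by edgeR at the FDR used was 0 with 10 samples, 4 with 12 libraries and 0 with each sample left out in turn, and DESeq2 called 2. At an unadjusted p of at most 0.05 the count was 7 to 13 over all alternatives. Members without overlap between diets numbered 3, but 2 with scaling by library size only and 1 with 12 libraries, with and without the length trend removed. They numbered 3 to 5 with a sample left out, reaching 5 without CON replicate 5. Replicate numbers did not pair the samples (correlations of same-numbered libraries -0.190 to 0.148), and with the replicate block on 12 libraries 0 members were called. Directions turned only for members whose log2 fold change with 10 samples lay between -0.15 and 0.12: with 12 libraries LAMTOR3 (0.010), RRAGA (0.015) and TSC1 (-0.047); with the replicate block LAMTOR3 (0.0011), RRAGA (0.024) and TSC1 (-0.044); with the length trend removed RICTOR (0.0039), MIOS (0.035) and FNIP2 (0.075), and with 12 libraries as well MIOS (0.068) and FNIP2 (0.027). With a sample left out the log2 fold change crossed 0 for 11 members: CASTOR2 (-0.0046 to 0.200), FLCN (-0.122 to 0.126), FNIP2 (-0.158 to 0.025), LAMTOR3 (-0.079 to 0.065), MTOR (-0.0061 to 0.122), RRAGA (-0.106 to 0.021), RRAGD (-0.284 to 0.080), SEH1L (-0.021 to 0.198), SESN2 (-0.148 to 0.114), TBC1D7 (-0.144 to 0.066) and TSC1 (-0.061 to 0.064). RLE factors, library size alone and no filter turned no member. The cause of these differences was not tested. Depth limits RRAGD (7 to 20 reads per library), DEPTOR (6 to 24) and EIF4EBP2 (11 to 41).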

Other observations

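Some members varied widely within a diet. The SD within a diet on the log2 scale was 0.527 for DEPTOR, 0.525 for CASTOR1, 0.493 for EIF4EBP2 and 0.477 for SESN3, against a median of 0.290 over all genes tested. DEPTOR held 6 to 24 and EIF4EBP2 11 to 41 reads per library, so counting error is part of their spread. The SD was lowest for MIOS at 0.122 and LAMTOR2 at 0.133. DEPTOR was at 1.01 CPM in CON 1+4 and 0.889 CPM in MET 1+3, the lowest sample of each diet, and at 1.15 to 2.51 CPM in the other samples. Per length, FNIP2 over FNIP1 was 1.83 ± 0.166 in CON and 2.33 ± 0.245 in MET, and EIF4EBP1 over EIF4EBP2 was 23.3 ± 13.8 and 51.2 ± 27.1 (SD, n = 5 each), with overlap between the diets in both.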
